A study of Homo sapiens with 16 samples.

Results

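The genes of the mitochondrial genome were followed across 16 RNA-seq libraries of mesenchymal stem cells (MSCs). All genes on chromosome M with a symbol that begins with MT- were taken, which gave 37 of the 60649 genes in the count table: 13 mRNAs, 2 rRNAs and 22 tRNAs. The members were thus set by their place in the genome. The library MmC-/GDF11+ replicate 2 had been chosen by its low mitochondrial counts for a comparison with and without it, so its values are a description and support nothing by themselves.

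The cells were ASC52telo, a single telomerase-immortalized line of human adipose MSCs, so the 4 replicates of each group are not different donors. "Young" MSCs received no mitomycin C (MmC), while senescent MSCs had been exposed to MmC, an agent that crosslinks DNA, at 1.5 µg/mL for 18 h. Growth differentiation factor 11 (GDF11), a secreted ligand of the TGF-beta family, was either left out or given at 10 ng/mL during the following 10 days. The young groups are named MmC-/GDF11- and MmC-/GDF11+ below, the senescent groups MmC+/GDF11- and MmC+/GDF11+, each with 4 libraries. RNA carrying a poly(A) tail was selected before sequencing, and the replicates are called biological without a statement that they were separate cultures. The study names batch effects from technical issues among its limitations, and states that all libraries were pooled for sequencing. The sample titles name no batch or run. The p-values therefore measure the spread between these libraries, part of which may be technical.

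Human mitochondrial DNA is a small circle that codes for core subunits of the respiratory chain and the ATP synthase, and for the rRNAs and tRNAs needed to translate them inside the organelle. Both strands are copied by the polymerase POLRMT into long precursors, and most of the mRNAs and rRNAs are released where RNase P and ELAC2 cut out the tRNAs that lie between them. Most of the mRNAs and the rRNAs then receive short poly(A) tails, and most of the mRNAs are held stable by the complex of LRPPRC and SLIRP. MSCs are known for relying largely on glycolysis while they proliferate.

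Of the 37 genes, 28 lie on the plus strand of the reference (hg38) and are copied from the heavy strand, and 9 lie on the minus strand and are copied from the light strand. The latter are MT-ND6, which codes for a complex I subunit, and 8 tRNAs. The sequences of the 3 tRNA genes with the highest counts, and of MT-TV, whose difference after MmC is described below, are shown from hg38 because their reads cannot be separated cleanly from those of their neighbours. The tRNA gene stands in capitals and the 20 bases on either side in lower case. MT-TL1 (a leucine tRNA) lies between MT-RNR2 and MT-ND1, MT-TT (threonine) directly follows MT-CYB, MT-TD (aspartate) precedes MT-CO2, and MT-TV (valine) separates both rRNAs.
MT-TL1, chrM:3210-3324, plus strand: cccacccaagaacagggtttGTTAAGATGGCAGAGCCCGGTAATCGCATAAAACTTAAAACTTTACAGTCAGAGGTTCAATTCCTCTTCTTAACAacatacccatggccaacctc
MT-TT, chrM:15868-15973, plus strand: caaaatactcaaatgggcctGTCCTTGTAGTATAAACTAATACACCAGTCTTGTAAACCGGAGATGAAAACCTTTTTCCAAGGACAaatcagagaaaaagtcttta
MT-TD, chrM:7498-7605, plus strand: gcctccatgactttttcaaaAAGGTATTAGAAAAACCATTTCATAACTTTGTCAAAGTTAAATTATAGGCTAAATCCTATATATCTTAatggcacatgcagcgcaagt
MT-TV, chrM:1582-1690, plus strand: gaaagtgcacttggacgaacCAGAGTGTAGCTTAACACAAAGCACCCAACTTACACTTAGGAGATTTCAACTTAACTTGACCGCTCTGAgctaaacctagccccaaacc
The reads were 150 bases long and each of these genes is 66 to 75 bases long, so a read from an uncut precursor and a read from a mature tRNA cannot be told apart in the counts.

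Some of the mRNAs carry a pair of overlapping reading frames, and these overlaps are shown because a read within them belongs to both genes. Capitals mark the bases that both genes share. MT-ATP8 and MT-ATP6 code for subunits of the ATP synthase and share 46 bases, and MT-ND4L and MT-ND4 code for subunits of complex I and share 7.
MT-ATP8/MT-ATP6, chrM:8507-8592, plus strand: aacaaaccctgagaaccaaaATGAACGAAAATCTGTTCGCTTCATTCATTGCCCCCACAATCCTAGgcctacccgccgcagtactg
MT-ND4L/MT-ND4, chrM:10740-10786, plus strand: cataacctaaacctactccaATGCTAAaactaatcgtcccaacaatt
Several mitochondrial mRNAs end within a stop codon, which the poly(A) tail completes to TAA. Their last 12 bases are shown beside those of MT-CO2, which holds a whole stop codon, with the bases of the stop codon in capitals.
MT-ND1, chrM:4251-4262: ccctcaaaccTA
MT-ND2, chrM:5500-5511: taataatcttaT
MT-CO3, chrM:9979-9990: gatgagggtctT
MT-ND3, chrM:10393-10404: actgaaccgaaT
MT-ND4, chrM:12126-12137: ggttttcctctT
MT-CYB, chrM:15876-15887: tcaaatgggccT
MT-CO2, chrM:8258-8269: tttaccctaTAG

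Total counts per library were between 71275337 and 144204979. The cells expressed the MSC markers NT5E, ENG, ITGB1, CD44 and THY1 at median levels of 557 to 2173 CPM (each count divided by the library's TMM-scaled total and put on a common scale), while the median of the leukocyte marker PTPRC was 0.512 CPM, that of the monocyte marker CD14 was 2.04 CPM and that of the adipocyte hormone ADIPOQ was 0. Other marker lists moved with MmC. The summed level of 4 endothelial genes was 7.82 to 11.3 CPM in MmC-/GDF11- and 8.66 to 21.1 CPM in MmC+/GDF11-, most of it from PECAM1, with KDR at a median of 0.0884 CPM. The sum of EPCAM, CDH1 and KRT18 was 37.3 to 55.9 CPM in MmC-/GDF11- and 10.2 to 20.2 CPM in MmC+/GDF11-, most of it from KRT18, with EPCAM at a median of 0.012 CPM. The sum of PTPRC, CD14 and ITGAM was 1.7 to 2.64 CPM against 2.6 to 5.53 CPM, and that of 3 adipocyte genes 0.0311 to 0.13 CPM against 0.257 to 1.44 CPM. The part of these genes in the results was not tested. Replicate 1 of each group stood apart from the rest across the genome. Its share of 13140 genes at least 2-fold below the other libraries of the group was 3.18% in MmC+/GDF11- and 3.36% in MmC+/GDF11+. The other 14 libraries had at most 0.51%. Genes at least 2-fold above the other libraries numbered 201 and 102 for replicate 1 of young MSCs, without and with GDF11. For replicate 1 of senescent MSCs they numbered 195 and 175. Replicates 2 to 4 had at most 15 such genes in every group.

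Mitochondrial genes took a larger share of the counts in senescent than in young MSCs. The share was 2.96%, 2.8%, 3.11% and 3.06% in the 4 libraries of MmC-/GDF11- (replicates 1 to 4), and 3.55%, 3.79%, 4.48% and 4.06% in MmC+/GDF11-. With GDF11 it was 2.77%, 1.58%, 3.04% and 2.77% in MmC-/GDF11+, and 3.75%, 4.73%, 4.57% and 4.12% in MmC+/GDF11+. Every MmC+ library lay above every MmC- library, and replicate 2 of MmC-/GDF11+ was the lowest of all. The 95% Wilson intervals of these shares reached at most 0.00432 percentage points to either side and cover counting error only. In bulk RNA of this kind fewer cells of a type and less RNA per cell cannot be told apart, and neither can more copies of mitochondrial DNA and more RNA per copy.

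The mRNAs carried this difference more than the rRNAs did. They held 2.04% to 2.55% of counts in MmC-/GDF11- and 2.9% to 3.6% in MmC+/GDF11-, without overlap, whereas the rRNAs held 0.499% to 0.782% and 0.65% to 0.873%, with overlap. For each count on an rRNA there were 3.74, 2.65, 2.97 and 5.11 counts on the 12 heavy-strand mRNAs in MmC-/GDF11- and 4.46, 4.05, 4.12 and 4.88 in MmC+/GDF11-. These ratios overlapped between the groups. How fully the poly(A) selection kept the rRNAs, the tRNAs and each mRNA was not measured, and its part in these ratios was not tested.

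**Figure D1:**
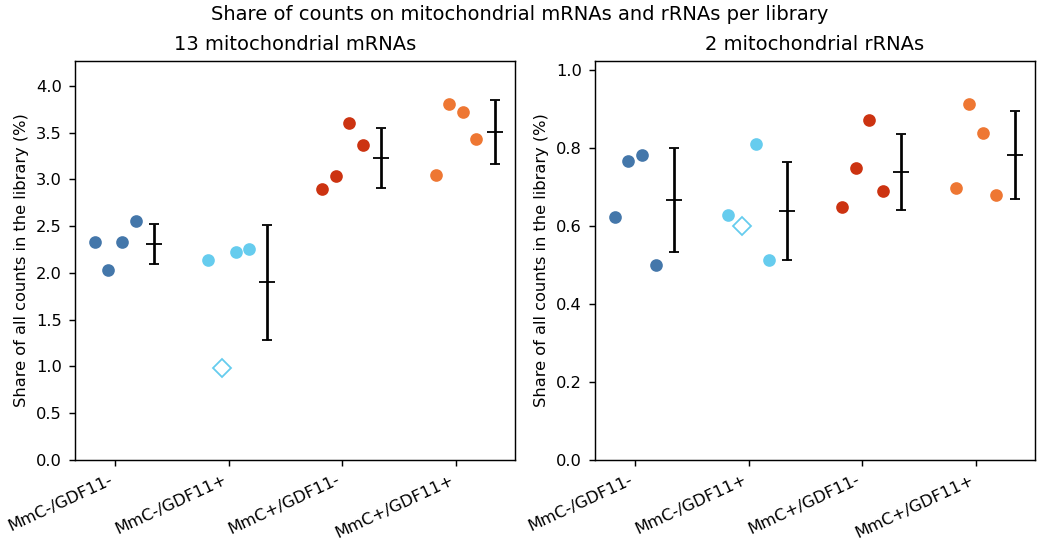
Share of each library's counts on the 13 mitochondrial mRNAs (left) and the 2 mitochondrial rRNAs (right), in percent. Points are libraries, the open diamond is replicate 2 of MmC-/GDF11+, and bars give the mean ± SD of 4 libraries. For the mRNAs the MmC+ libraries lie above all MmC- libraries, for the rRNAs the groups overlap, and the diamond stands apart on the left at 0.98% but not on the right at 0.599%.

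Per kilobase of gene, MT-CO2 and MT-CO1, which code for catalytic core subunits of cytochrome c oxidase (complex IV), had the highest mRNA levels in MmC-/GDF11-. MT-CO2 stood at 4598 ± 370 and MT-CO1 at 4287 ± 482 CPM per kb (SD, n = 4). These neighbours in the order differed by less than their spread. MT-CO3, the remaining complex IV mRNA, followed at 3106 ± 128 and MT-ATP6 at 2475 ± 305. MT-ND6 was the lowest at 68.2 ± 11.5 CPM per kb, and the next lowest, MT-ND5, stood at 784 ± 186.

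The comparison of MmC+/GDF11- with MmC-/GDF11- asks what changed with MmC-induced senescence in the absence of GDF11. Of the 37 mitochondrial genes 32 had enough counts to be tested, and 13 of them were higher and 0 lower at an adjusted p under 0.05 (edgeR's quasi-likelihood test with Benjamini-Hochberg adjustment over 19103 genes). The 13 comprised 6 of 13 mRNAs, 0 of 2 rRNAs and 7 of the 17 tested tRNAs. Among all genes tested 22.9% were higher and 22.4% lower. The median log2 fold change was 0.52 over the 13 mRNAs and -0.01 over all genes. The groups did not overlap, with MmC+/GDF11- the higher, for 9 of 13 mRNAs, against 19.1% of all genes tested. This fit did not use the replicate number to pair libraries. With that number as a block the same 13 genes passed, and MT-RNR1, MT-TK and MT-TT passed as well.

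Complex I, which passes electrons from NADH to ubiquinone, has the most mitochondrial subunits. MT-ND1 was at 1221, 1236, 1280.2 and 1222 CPM in MmC-/GDF11- and at 1972, 2146, 2474 and 2045 CPM in MmC+/GDF11-. The groups were far apart, and the MmC- libraries lay close together. The log2 fold change was 0.80 ± 0.19 (SE, adjusted p = 0.00254, edgeR's quasi-likelihood test).

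MT-ND4L was at 319, 251, 328 and 379 CPM in MmC-/GDF11- and at 512, 561, 526 and 568 CPM in MmC+/GDF11-, with no overlap. Its log2 fold change of 0.76 ± 0.12 had the lowest adjusted p of all mitochondrial genes (8.14e-05, edgeR's quasi-likelihood test). MT-ND4, which shares its transcript, rose by 0.64 ± 0.20, MT-ND5 by 0.75 ± 0.29 and MT-ND3 by 0.52 ± 0.17 on the log2 scale, with adjusted p-values of 0.0152, 0.0418 and 0.0189 in edgeR's quasi-likelihood test. MT-ND5 lost its call without MmC-/GDF11- replicate 1, 2 or 3 or MmC+/GDF11- replicate 1, 3 or 4. It also lost its call with limma-voom, without a filter on low counts and without replicate 1 of every group. MT-ND3 lost its call without MmC-/GDF11- replicate 4 or MmC+/GDF11- replicate 3. The highest adjusted p-values of MT-ND5 and MT-ND3 over all alternatives, by the test of each alternative, were 0.155 and 0.0611. MT-ND2 had a log2 fold change of 0.63 ± 0.27 and missed the threshold (adjusted p = 0.0718, edgeR's quasi-likelihood test), although its libraries at 788 to 1064 CPM in MmC-/GDF11- did not overlap those at 1233 to 1770 CPM in MmC+/GDF11-.

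In complex IV, which reduces oxygen, the 3 mRNAs had unequal values. MT-CO1 was at 7482, 5719, 6395 and 6844 CPM in MmC-/GDF11- and at 9796, 9418, 10359 and 9431 CPM in MmC+/GDF11-. All MmC+ libraries were higher, and the log2 fold change was 0.56 ± 0.16 (adjusted p = 0.0102, edgeR's quasi-likelihood test). MT-CO3 had a log2 fold change of 0.49 ± 0.21, which did not pass (adjusted p = 0.0737, edgeR's quasi-likelihood test), with no overlap between 2299 to 2529 and 3155 to 3733 CPM.

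MT-CO2 was at 2899.9, 3501, 3086 and 3094 CPM in MmC-/GDF11- and at 2715, 3326, 3458 and 2983 CPM in MmC+/GDF11-. The groups overlapped almost fully. Its log2 fold change was -0.01 ± 0.19 (adjusted p = 0.967, edgeR's quasi-likelihood test), and its sign turned under other scalings. Whether MT-CO2 differed from the other mRNAs in its response was not tested.

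Complex III and the ATP synthase gave positive values that did not pass. MT-CYB, the cytochrome b of complex III, was at 1564, 1288, 1470.4 and 1634 CPM in MmC-/GDF11- and at 2119.7, 1744, 2157 and 1992 CPM in MmC+/GDF11-. The libraries did not overlap, yet the log2 fold change of 0.43 ± 0.26 had an adjusted p of 0.198 (edgeR's quasi-likelihood test). MT-ATP6 and MT-ATP8 each had a log2 fold change of 0.42, with SEs of 0.26 and 0.27.

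The SE of each mRNA comes from a spread that the 4 groups share, and this spread was smaller without MmC-/GDF11+ replicate 2, a library outside this comparison. Without it 18 mitochondrial genes were higher and 0 lower, against 23.2% of 19501 genes higher, and 11 of 13 mRNAs passed, all except MT-CO2 and MT-ND6. The median over the mRNAs was then 0.53. Because that library had been chosen for low counts of these genes, leaving it out was bound to shrink their spread. The added calls are therefore no support for a rise.

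**Figure D2:**
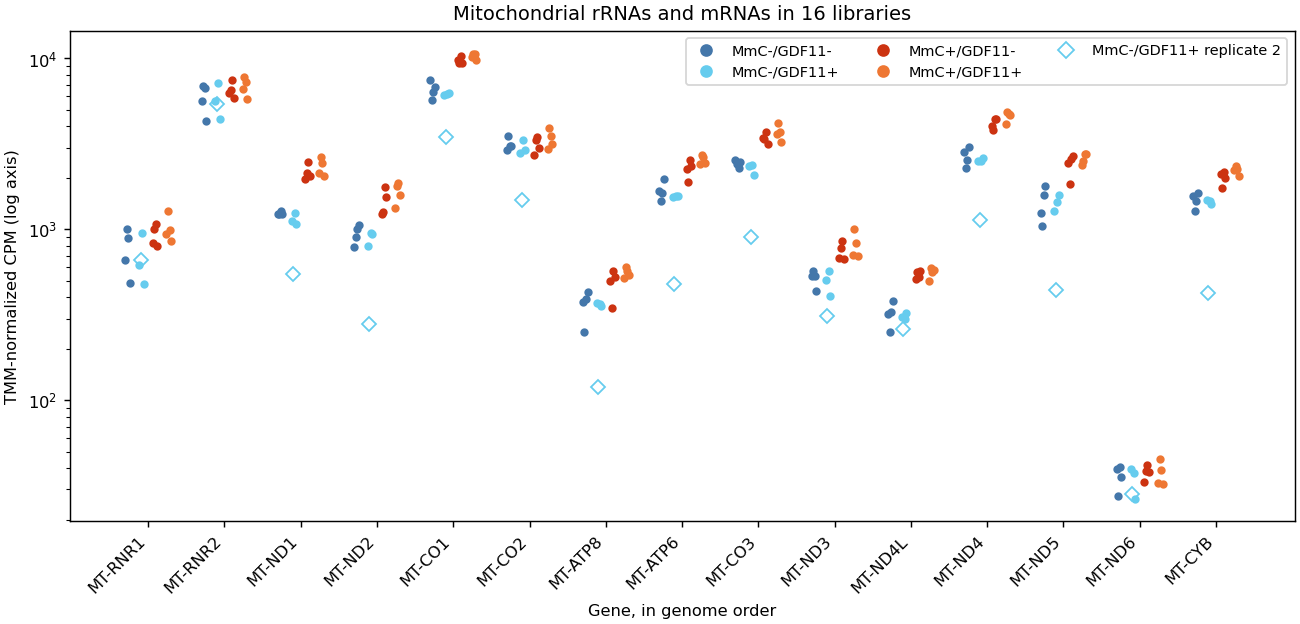
Levels of the mitochondrial rRNAs and mRNAs in genome order, as TMM-scaled CPM on a log axis. Each point is 1 library, coloured by group, and the open diamond is replicate 2 of MmC-/GDF11+. The diamond lies below all other libraries for 11 of the 13 mRNAs and among them for MT-RNR1, MT-RNR2 and MT-ND6.

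The comparison of MmC+/GDF11+ with MmC-/GDF11+ asks the same where GDF11 was present. Here 19 of the 32 tested genes were higher and 0 lower, against 23.4% of 19103 genes higher and 23.3% lower. They comprised 11 of 13 mRNAs, MT-RNR1 and 7 tRNAs. The median log2 fold change was 0.91 over the mRNAs and -0.01 over all genes, and 11 mRNAs had no overlap between the groups, against 20.2% of all genes. Without MmC-/GDF11+ replicate 2, 18 genes were higher, against 21.0% of 19501 genes, and the median over the mRNAs was 0.72. The same number of mRNAs, 11 of 13, passed. These calls have the same limit, as the library left out had been chosen for low mitochondrial counts.

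MT-ND1 was at 1112, 546, 1241 and 1069 CPM in MmC-/GDF11+ and at 2138, 2647, 2457 and 2039 CPM in MmC+/GDF11+. Its log2 fold change was 1.23 ± 0.19 with all libraries and 1.03 ± 0.12 without replicate 2 of MmC-/GDF11+. MT-CYB was at 1487, 424, 1470.3 and 1415 CPM and at 2222, 2336, 2269 and 2058 CPM. Its log2 fold change was 0.89 ± 0.27 with all libraries and 0.62 ± 0.12 without that replicate, so that both the difference and its error became smaller. With only the libraries compared in the fit, MT-CYB lost its call (adjusted p = 0.0521, edgeR's quasi-likelihood test, with a range of 0.000126 to 0.0521 over the alternatives), and MT-ATP8 lost its call without a filter on low counts (adjusted p = 0.0563, with a range of 0.001 to 0.0563). MT-ATP6 went from 0.98 ± 0.26 to 0.72 ± 0.13, MT-ND5 from 1.13 ± 0.29 to 0.87 ± 0.18 and MT-ND4L from 0.90 ± 0.12 to 0.85 ± 0.12. MT-CO2 and MT-ND6 did not pass in either form. MT-CO2 had a log2 fold change of 0.36 ± 0.19 with all libraries and 0.18 ± 0.13 without the replicate. With all libraries the remaining mRNAs rose by 0.85 (MT-ND3) to 1.15 (MT-ND2) on the log2 scale, with MT-ATP8 at 0.88, MT-CO1 at 0.91, MT-CO3 at 0.94 and MT-ND4 at 1.07.

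**Figure D3:**
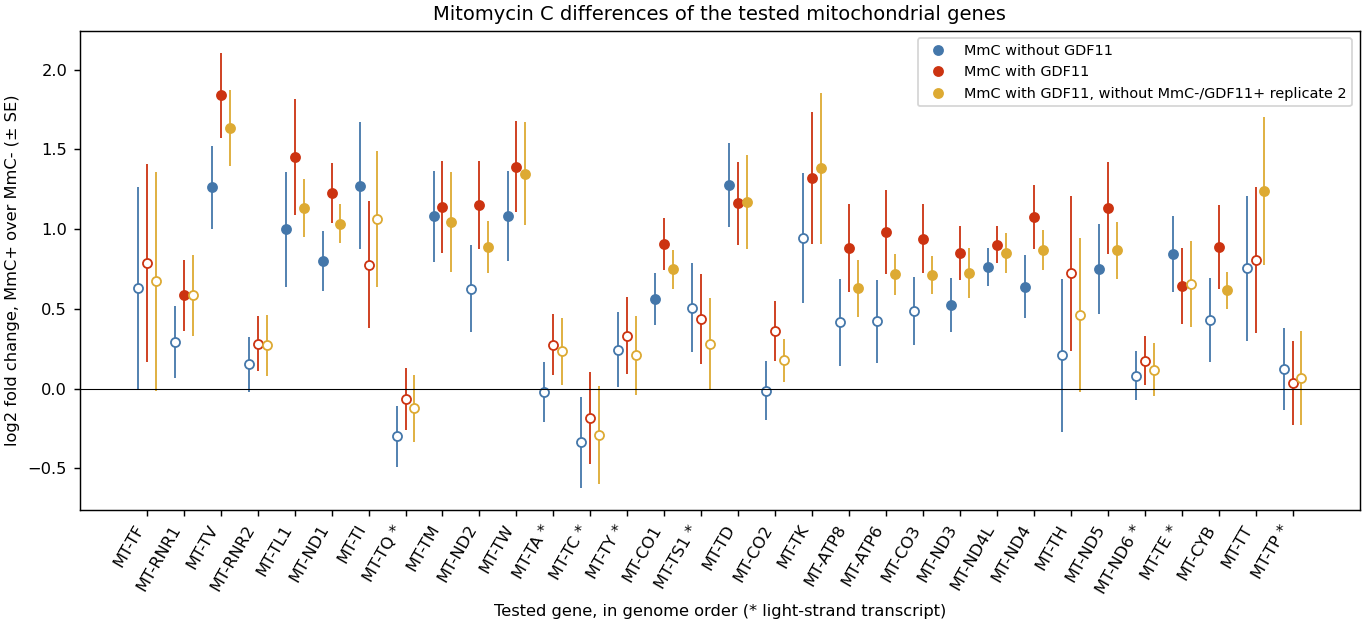
Log2 fold changes (MmC+ over MmC-, ± SE) of the 32 tested mitochondrial genes in genome order, without GDF11 (blue), with GDF11 (red) and with GDF11 when replicate 2 of MmC-/GDF11+ is left out (yellow). Filled points passed edgeR's quasi-likelihood test at an adjusted p of 0.05 and asterisks mark light-strand transcripts. Among the light-strand genes MT-TE is the only one with a filled point.

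MT-ND6, the only mRNA copied from the light strand, was at 39.5, 27.5, 40.8 and 35.4 CPM in MmC-/GDF11- and at 33.4, 38.7, 41.5 and 37.9 CPM in MmC+/GDF11-. The groups overlapped, and the log2 fold change was 0.08 ± 0.15 (adjusted p = 0.694, edgeR's quasi-likelihood test). With GDF11 it was 0.18 ± 0.15 (adjusted p = 0.369, edgeR's quasi-likelihood test). Set against the 12 heavy-strand mRNAs, MT-ND6 made up 0.131% to 0.181% of their counts in MmC-/GDF11- and 0.105% to 0.127% in MmC+/GDF11-, without overlap. By strand, 12 of 24 tested plus-strand genes and 1 of 8 tested minus-strand genes were higher without GDF11, and 18 of 24 and 1 of 8 with GDF11, against 22.9% and 23.4% of all genes tested. The difference between the strands was not tested. The median log2 fold changes were 0.63 and 0.10 without GDF11 and 0.92 and 0.23 with it. The gene that rose on the minus strand was in each case MT-TE, a glutamate tRNA next to MT-ND6, by 0.85 ± 0.24 without GDF11 and 0.64 ± 0.24 with it. The latter call was lost without MmC-/GDF11+ replicate 2, 3 or 4 or MmC+/GDF11+ replicate 2 or 3 (highest adjusted p over all alternatives 0.131, edgeR's quasi-likelihood test). It was also lost with only the libraries compared, without a filter on low counts, and with the replicate block when MmC-/GDF11+ replicate 2 was left out. The libraries were made with a directional kit, but the strand setting used for the count table is not stated. If strand was ignored in counting, a read from MT-ND6 and one from the precursor of the other strand could not be told apart. How fully the poly(A) selection kept MT-ND6 was not measured either, and its part in these values was not tested.

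The rRNAs changed less clearly. MT-RNR2, the rRNA of the large ribosomal subunit, was at 5614, 6918, 6699 and 4289.8 CPM in MmC-/GDF11- and at 6254, 6523, 7523 and 5833 CPM in MmC+/GDF11-. Its groups overlapped, and the log2 fold change was 0.15 ± 0.17 without and 0.28 ± 0.17 with GDF11, neither of which passed. With the replicate number as a block the value with GDF11 passed (adjusted p = 0.0273, edgeR's quasi-likelihood test). The value without GDF11 did not pass with the block either (adjusted p = 0.188, edgeR's quasi-likelihood test). MT-RNR1, the rRNA of the small subunit, was at 664, 999, 886 and 486 CPM in MmC-/GDF11- and at 836, 999.9, 1080.4 and 798 CPM in MmC+/GDF11-. Replicate 4 was the lowest of both groups. The log2 fold change was 0.29 ± 0.22 (adjusted p = 0.306, edgeR's quasi-likelihood test), and with the replicate number as a block it was 0.33 ± 0.13 and passed (adjusted p = 0.042, edgeR's quasi-likelihood test), with a range of 0.0272 to 0.631 over all alternatives.

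With GDF11 MT-RNR1 rose by 0.59 ± 0.22 (adjusted p = 0.0423, edgeR's quasi-likelihood test), although 479.7 to 954 CPM in MmC-/GDF11+ overlapped 857 to 1285 CPM in MmC+/GDF11+. This call was lost without MmC-/GDF11+ replicate 1, 2 or 4 or MmC+/GDF11+ replicate 2 or 3, with adjusted p-values of 0.0591 to 0.123 over these and other alternatives.

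Among the tRNAs, MT-TT and MT-TL1 stood out in level, with means of 14.6 and 12.0 CPM over the 16 libraries. MT-TD followed at 1.69 CPM, and the remaining tRNAs had at most 1.30 CPM. MT-TL1 was at 7.37, 6.81, 9.02 and 9.34 CPM in MmC-/GDF11- and at 14.2, 12.6, 21.0 and 17.2 CPM in MmC+/GDF11-. The groups did not overlap, and the log2 fold change was 1.00 ± 0.36 (adjusted p = 0.0333, edgeR's quasi-likelihood test). It missed the threshold without MmC-/GDF11- replicate 1, 2 or 3 or MmC+/GDF11- replicate 3 or 4 (highest adjusted p over all alternatives 0.106). The same held without a filter on low counts and without replicate 1 of every group. With GDF11 the log2 fold change of MT-TL1 was 1.45 ± 0.36, and it was 1.13 ± 0.18 without MmC-/GDF11+ replicate 2, where this tRNA had 1.45 CPM.

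MT-TV, the valine tRNA, was at 0.624, 0.87, 0.826 and 0.443 CPM in MmC-/GDF11- and at 1.44, 1.34, 1.91 and 1.93 CPM in MmC+/GDF11-. It rose by 1.26 ± 0.26 without GDF11 and by 1.84 ± 0.27 with it, and by 1.64 ± 0.24 in the latter comparison without replicate 2 of MmC-/GDF11+. MT-TD was at 1.18, 1.13, 1.01 and 0.646 CPM against 1.85, 3.4, 2.71 and 1.63 CPM, and rose by 1.28 ± 0.26 without and 1.16 ± 0.26 with GDF11. The groups did not overlap for either tRNA.

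MT-TT, which follows MT-CYB, varied widely within groups. It was at 11.8, 16.7, 11.9 and 4.66 CPM in MmC-/GDF11- and at 16.2, 30.3, 18.8 and 10.8 CPM in MmC+/GDF11-, with replicate 2 the highest and replicate 4 the lowest of each group. Its log2 fold change of 0.76 ± 0.45 did not pass (adjusted p = 0.189, edgeR's quasi-likelihood test), and with the replicate number as a block the value of 0.79 had an adjusted p of 0.00146 (edgeR's quasi-likelihood test), with a range of 0.000988 to 0.471 over the alternatives. Leaving out MmC-/GDF11+ replicate 2 moved the value with GDF11 from 0.81 ± 0.46 to 1.24 ± 0.47, which then passed with an adjusted p of 0.0472 (edgeR's quasi-likelihood test).

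Further tRNAs that rose in both comparisons were MT-TM (methionine), by 1.08 and 1.14, and MT-TW (tryptophan), by 1.08 and 1.39 on the log2 scale. MT-TI (isoleucine) rose without GDF11, by 1.27 ± 0.40, and lost its call without MmC+/GDF11- replicate 2 (adjusted p = 0.0683, edgeR's quasi-likelihood test). MT-TK (lysine) rose with GDF11, by 1.32 ± 0.42, and lost its call without MmC+/GDF11+ replicate 2 (adjusted p = 0.0547, edgeR's quasi-likelihood test). It had 2, 6, 8 and 7 counts in MmC-/GDF11+ and 5, 26, 29 and 18 in MmC+/GDF11+. In MmC-/GDF11- it had 6, 11, 7 and 7. Scaled for depth, no MmC- library met the filter on low counts, so MT-TK was tested only through the MmC+ libraries. It was not tested with only the libraries compared. Its calls, here and with the block without GDF11, are no support for a rise of the tRNAs. The counts of genes called above include them. Without GDF11 MT-TK had a log2 fold change of 0.95 ± 0.41, which passed only in some alternatives, among them the replicate block (adjusted p = 0.0135, edgeR's quasi-likelihood test, with a range of 0.0135 to 0.174). Whether MT-TI or MT-TK responded differently with GDF11 is covered by the interaction below, in which neither passed. MT-TF, MT-TH, MT-TQ, MT-TA, MT-TC, MT-TY, MT-TS1 and MT-TP passed in neither comparison, with log2 fold changes from -0.34 (MT-TC) to 0.79 (MT-TF). MT-TL2, MT-TG, MT-TN, MT-TR and MT-TS2 had at most 12 counts in any library and were not tested.

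GDF11 itself left no mitochondrial gene past the threshold. In young MSCs 0 of 32 tested genes were higher or lower, against 0.0% of 19103 genes called by edgeR's quasi-likelihood test. At an unadjusted p under 0.05 there were 0 of the 32 with edgeR, limma-voom or DESeq2, against 226 of the 19103 genes with edgeR. All 13 mRNAs had negative log2 fold changes, from -0.39 ± 0.26 (MT-ATP6) to -0.10 ± 0.12 (MT-ND4L), with a median of -0.26. Without MmC-/GDF11+ replicate 2 they lay between -0.12 ± 0.12 (MT-ND1) and 0.02 ± 0.18 (MT-ND5), with a median of -0.07, and MT-CYB went from -0.31 ± 0.26 to -0.03 ± 0.11. Of the 13 negative values 11 stayed negative without this library, and all were closer to 0.

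In senescent MSCs 0 of 32 genes were called, against 0.0% of all genes. With the same tools 0 had an unadjusted p under 0.05, against 96 of 19103 genes with edgeR. The log2 fold changes of the mRNAs were between -0.02 ± 0.15 (MT-ND6) and 0.21 ± 0.27 (MT-ATP8), with a median of 0.12. The test of whether MmC acted differently with and without GDF11 (the interaction) also called 0 of 32 genes, against 0.0% of all genes. By the 3 tools 0 had an unadjusted p under 0.05, against 172 of 19103 genes with edgeR. All 13 mRNAs had positive interaction values, from 0.09 (MT-ND6) to 0.56 (MT-ATP6) on the log2 scale. Their median fell from 0.43 to 0.19 when MmC-/GDF11+ replicate 2 was left out. The larger count of genes called with GDF11 (19) than without (13) is therefore not shown to be a difference between the conditions. With SEs of this size, differences such as the -0.39 of MT-ATP6 were not detectable.

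**Figure D4:**
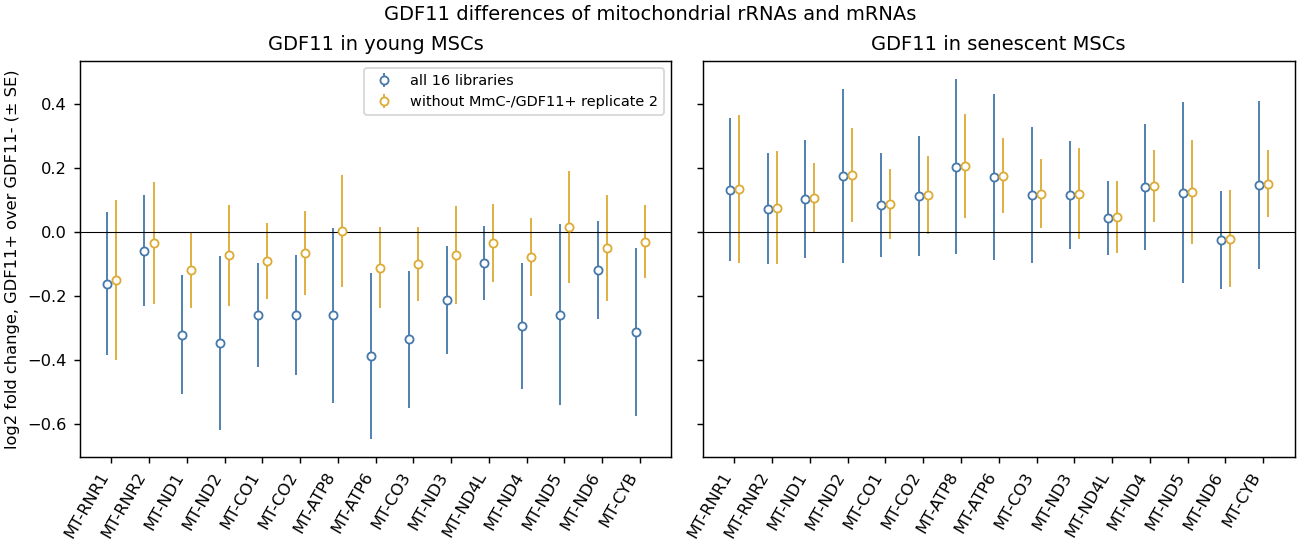
Log2 fold changes (GDF11+ over GDF11-, ± SE) of the mitochondrial rRNAs and mRNAs in young (left) and senescent MSCs (right), with all 16 libraries (blue) and without replicate 2 of MmC-/GDF11+ (yellow). In young MSCs the median of the mRNAs moves from -0.26 to -0.07, and in senescent MSCs the values with and without this replicate nearly coincide.

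Replicate 2 of MmC-/GDF11+ was singled out for its low mitochondrial share, so its low values restate that choice and are given as a description. They were uneven across the mitochondrial genome. Relative to the median of the other 3 libraries of its group, MT-CYB was at 0.289, MT-ND2 at 0.297, MT-ND5 at 0.304, MT-ATP6 at 0.305, MT-ATP8 at 0.331 and MT-CO3 at 0.388. MT-ND4, MT-ND1, MT-CO2, MT-CO1 and MT-ND3 were at 0.452 to 0.613. MT-ND4L, at 0.841, was the least lowered heavy-strand mRNA, although it shares a transcript with MT-ND4. All 12 heavy-strand mRNAs were below the other 3 libraries, and 11 were the lowest of all 16.

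The rRNAs and MT-ND6 did not share this. MT-RNR1 was at 1.08, MT-RNR2 at 0.961 and MT-ND6 at 0.753 times the median of the other 3, each within the range of its group. The count of heavy-strand mRNAs per rRNA count was 1.63 in this library and 2.65 to 5.11 in the other 15. MT-ND6 made up 0.287% of the heavy-strand mRNA counts there, against 0.122% to 0.187% in the other 3 libraries of the group.

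Neighbouring genes went apart in this library. MT-TL1 was at 0.184 times the median of the other 3 (108 counts), and MT-TV at 0.421 (20 counts). MT-TT, the tRNA that begins at the base after the end of MT-CYB, was at 2.94 times the median (1344 counts). In the other 15 libraries, with this replicate left out of their medians, the ratio of MT-TT was 0.391 to 2.47. MT-TI, which begins at the base after MT-ND1, was at 1.68 times the median (73 counts), against 0.462 to 2.165 in the other 15. MT-TT was the highest in replicate 2 of every group. MT-CYB was the lowest in replicate 2 of MmC-/GDF11- and MmC+/GDF11- and the highest in replicate 2 of MmC+/GDF11+. Whether same-numbered replicates shared these traits was not tested.

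**Figure D5:**
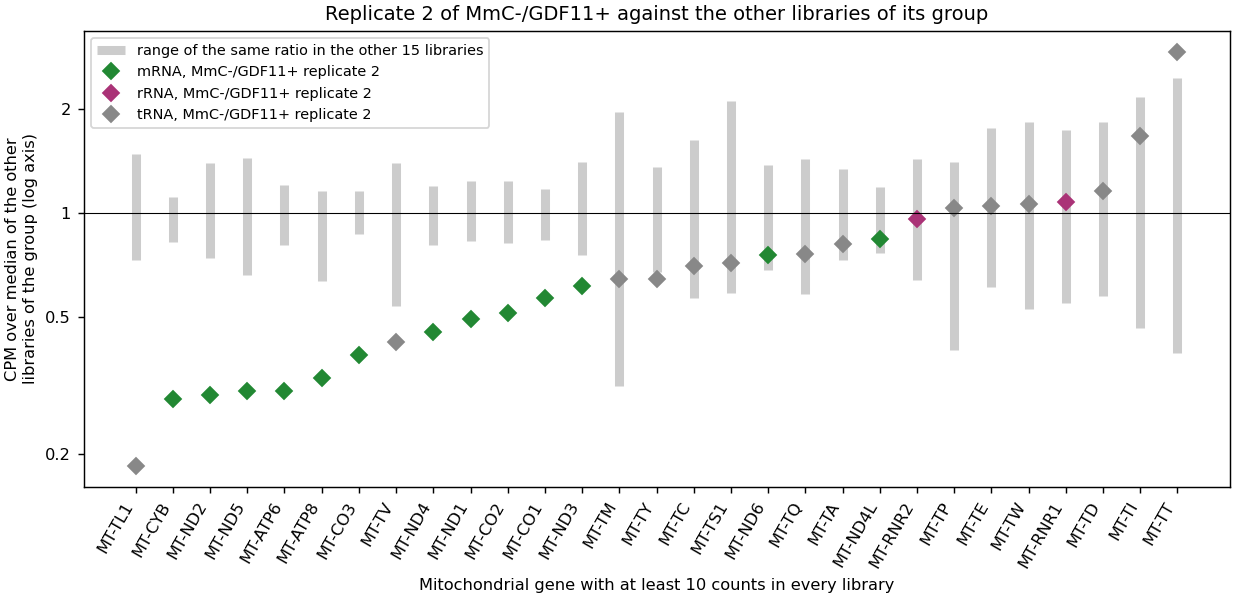
Level of each mitochondrial gene with at least 10 counts in every library in replicate 2 of MmC-/GDF11+, as a ratio to the median of the other 3 libraries of the group (log axis). Diamonds are mRNAs (green), rRNAs (purple) and tRNAs (grey). Grey bars span the ratio in the other 15 libraries, each set against the other libraries of its group without replicate 2 of MmC-/GDF11+. The heavy-strand mRNAs other than MT-ND4L fall below their bars, the rRNAs and MT-ND6 lie within them, and MT-TT lies above.

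Outside the mitochondrial genome few genes set the library apart. Its total of 75229738 counts, its TMM factor of 0.991 and its 25810 genes with a count were close to those of its group. Of 13140 genes with a mean of at least 1 CPM, 20 (0.152%) were at least 2-fold below each of the other 3 libraries. Of these 8 were mitochondrial genes and 1 was MTND2P28, a nuclear copy of MT-ND2, and the remaining 11 had at most 8.04 CPM in the other 3 libraries. Among the 1970 genes with a mean of at least 100 CPM, 7 were at least 2-fold below, and all 7 were mitochondrial. The nuclear genes for mitochondrial transcription summed to 193.5 CPM in it and those for RNA stability and decay to 771 CPM, the highest of its group and above the highest values of any other group, which were 187 and 734 CPM in MmC-/GDF11-. Those for RNA processing summed to 598 CPM, the highest of its group. The nuclear respiratory chain subunits summed to 7788 CPM there and to 6453 to 8131 CPM over the group.

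The nuclear genes that serve the mitochondrial genome are given from lists written for this purpose, and their counts are to be read against the 22.4% of all genes tested that were lower without GDF11 and the 23.3% with it (22.9% and 23.4% were higher). Of 9 genes for mitochondrial transcription, 0 were higher and 2 lower without GDF11, which is near the share over all genes, and 0 and 4 with it. MTERF2, a member of the termination factor family, fell by 0.94 ± 0.13 and 0.97 ± 0.13 on the log2 scale. MRPL12, a ribosomal protein that also binds POLRMT, fell by 0.81 ± 0.17 and 0.97 ± 0.18, and MTERF3 had values of -0.33 ± 0.15 and -0.46 ± 0.15, of which the second passed. POLRMT itself, the packaging factor TFAM and the initiation factor TFB2M passed in neither comparison, with log2 fold changes of -0.07, -0.09 and 0.17 without GDF11.

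Of 18 genes for replication and nucleotide supply, 1 was higher and 9 lower without GDF11, and 2 and 7 with it. RRM2B, a p53-inducible subunit of ribonucleotide reductase, was at 33.0 to 44.8 CPM in MmC-/GDF11- and at 107.6 to 154 CPM in MmC+/GDF11-, and rose by 1.68 ± 0.14 and by 1.57 ± 0.14 with GDF11. LIG3, the DNA ligase of mitochondria, fell by 0.79 ± 0.09 in both comparisons, and SUCLG1, a subunit of succinate-CoA ligase, by 0.79 ± 0.11 and 0.84 ± 0.11.

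Of 24 genes for RNA processing and modification, 1 was higher and 7 lower, against the 22.4% lower over all genes, and 1 and 9 with GDF11, against 23.3%. RPUSD3 and RPUSD4, pseudouridine synthase family members, fell by 0.93 and 0.57 without GDF11 and by 0.94 and 0.63 with it, and QTRT1, which places queuosine in tRNAs, fell by 0.62 and 0.66. ELAC2, which trims the 3′ ends of mitochondrial tRNAs, fell by 0.53 ± 0.12 and 0.56 ± 0.12.

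Of 15 genes for RNA stability and decay, 2 were higher and 5 lower, against 22.9% and 22.4% over all genes, and 2 and 7 with GDF11. SUPV3L1, the helicase of the mitochondrial RNA degradosome, rose by 0.54 ± 0.13 and 0.62 ± 0.13. FASTKD3 fell by 0.74 ± 0.10 and 0.89 ± 0.10, and FASTK, whose mitochondrial form is needed for MT-ND6 mRNA, by 0.37 ± 0.09 and 0.46 ± 0.09. SLIRP fell by 0.37 ± 0.13 and 0.59 ± 0.13, while its partner LRPPRC had log2 fold changes of 0.11 ± 0.09 and 0.06 ± 0.09 that did not pass. ELAC2, SLIRP and LRPPRC, like POLRMT, TFAM and TFB2M above, are named for their roles and were chosen after their values were seen.

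Of 14 translation factors, 0 were higher and 5 lower in each comparison, among them the initiation factors MTIF3 (by 0.60 ± 0.12 without GDF11) and MTIF2 (by 0.40 ± 0.08) and the release factor family member MTRFR (by 0.37 ± 0.07). Of 10 tested regulators of mitochondrial biogenesis, 0 were higher and 3 lower in each comparison, near the 22.4% and 23.3% lower over all genes. These were the transcription factors CREB1, NRF1 and GABPA, which fell by 0.31, 0.38 and 0.27 without GDF11.

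The nuclear-encoded partners of the mitochondrial subunits in the respiratory chain and the ATP synthase are the nearest comparison. Of 77 tested, 1 was higher and 43 lower without GDF11, and 0 and 57 with GDF11, with median log2 fold changes of -0.35 and -0.45. The one that rose was NDUFA7, a complex I subunit, by 1.19 ± 0.28. ATP5F1C, the gamma subunit of the ATP synthase, was at 127 to 198 CPM in MmC-/GDF11- and at 57.3 to 78.7 CPM in MmC+/GDF11-, and fell by 1.24 ± 0.15, while ATP5F1A, the alpha subunit, fell by 0.63 ± 0.10 and NDUFS7, of complex I, by 0.69 ± 0.11. Over the same libraries 0 of the 13 mitochondrial mRNAs fell. Both medians are descriptions, and the difference between the gene lists was not tested.

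Copies of mitochondrial DNA in the nuclear genome can take or lend reads. The table held 404 nuclear pseudogenes of mitochondrial genes, and MTATP6P1, MTND2P28 and MTCO1P12, which lie together on chromosome 1, took 99.5% of their counts. MTATP6P1 (chr1:633696-634376) had 18899 to 57539 counts per library. This was 14.4% to 27% of the counts of MT-ATP6 in 15 libraries and 56.3% in replicate 2 of MmC-/GDF11+, where MTATP6P1 was at 268 CPM, above the 227 to 263 CPM of the other 3 libraries. MTND2P28 (chr1:629640-630683) was at 9.25 CPM in that replicate and at 61.0 to 76.8 CPM in the other 3, so this copy was low there together with MT-ND2.

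The chromosome M sequence was searched for windows of 150 bases, the length of a read, that also occur without a mismatch elsewhere in hg38. Of 16569 windows 715 (4.32%) did. They touched MT-CO1 (17.2% of its windows), MT-ND2 (12.8%), MT-RNR1 (7.62%), MT-ATP8 (7.3%), MT-ND1 (5.25%) and MT-CO2 (4.68%). MT-ATP6, MT-CO3, MT-ND3, MT-ND4L, MT-ND4, MT-ND5, MT-ND6, MT-CYB and MT-RNR2 had no such window. Among the tRNAs MT-TN had the most (41%), MT-TI had 22.5% and MT-TK 17.8%, while MT-TL1, MT-TV and MT-TT had none. How multiply aligned reads were counted is not stated, and the counts of the former genes are uncertain to that extent. A gene without such a window may still share reads, because inexact copies were not searched. Whether MT-ATP6, which has no such window, shares reads with MTATP6P1 was not tested.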

How the data were processed

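RNA of 16 libraries was sequenced in paired reads of 150 bases after poly(A) selection and directional library preparation. For alignment to hg38 the authors used HISAT2 2.2.1, then featureCounts 2.0.1 on GENCODE V38 genes, and they deposited raw counts per gene without normalization. Counting of pairs, strand and multiply aligned reads is not given in the sources used here. Groups and replicate numbers came from the sample titles, and no library was left out of the main fit.

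From the counts, log2 fold changes and tests were computed in R 4.3.3 with edgeR 4.0.16 (filterByExpr with minimum count 10 and minimum total 15, TMM scaling, robust quasi-likelihood fit of 1 mean per group over 16 libraries, Benjamini-Hochberg adjustment over 19103 genes at 0.05). Levels are TMM-scaled CPM. Identifiers were matched to GENCODE v44, in which 186 of 60649 had no match. The fit was tried on counts simulated with 200 changed genes and no shift of any replicate. That trial checked the code and not how the fit handles replicate differences such as those seen here. Named were all mRNAs and rRNAs, the tested tRNAs, and from each nuclear list the 3 genes with the lowest adjusted p for MmC without GDF11, with the exceptions stated in the text. The members, gene lists and tests were chosen with earlier results of these data known.

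Whether the replicate numbers pair libraries was checked by correlating the deviations of same-numbered libraries from the mean of their group. In the MmC comparison without GDF11 every pair had at least 0.113, and in the GDF11 comparison of senescent MSCs at least 0.448, so these were taken as paired. The other comparisons had a pair at 0.0293 and 0.0982 and were taken as unpaired. Replicate 1 stood apart in each group and enters each group mean, which shifts the deviations of the other replicates the same way. The check therefore cannot show pairing beyond replicate 1. The main fit used no block in any comparison, so its SEs and p-values do not use any pairing. No pair of libraries of a group agreed within sampling noise. Alternatives were RLE, upper-quartile and nuclear-gene scaling, a fit of the compared libraries alone, the unfiltered table, a minimum of 10 counts per library, a replicate block, limma-voom (limma 3.58.1), DESeq2 1.42.0 and omission of single libraries. Leaving out replicate 1 of every group, and combining the block with leaving out MmC-/GDF11+ replicate 2, were added after seeing the data.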

Additional observations from a re-analysis of the deposited data

Results flagged for a closer look

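Within each group of 4 libraries, the highest or lowest library was compared with the rest by Dixon's test at the 95% level for the tested mitochondrial genes and the share of counts. Of 132 groups 9 stood out, where chance gives about 1 in 20. MmC-/GDF11+ replicate 2, which was chosen for its low mitochondrial counts, accounts for 6 of the 9, so these 6 restate that choice and are no independent evidence. In that library MT-CO1 was at 3482 CPM, MT-ND4 at 1132, MT-ATP6 at 475.6, MT-CYB at 424.5 and MT-ATP8 at 120.2, each far below the other 3, and MT-TL1 was at 1.448 CPM. The other 3 were tRNAs with few counts. MT-TI was low in MmC-/GDF11- replicate 4 (0.3663 CPM), MT-TW was high in MmC-/GDF11+ replicate 3 (0.703 CPM) and MT-TY was high in MmC-/GDF11- replicate 2 (0.414 CPM).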

How the results depend on the processing

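The counts of mitochondrial genes called kept their direction in every alternative run, with 0 lower in each MmC comparison and 0 called for GDF11 and the interaction. Leaving out 1 library at a time gave 10 to 18 genes higher without GDF11 and 16 to 20 with it. With the replicate number as a block, 16 genes were higher without and 22 with GDF11, where MT-RNR2 (0.29, adjusted p = 0.0273, edgeR), MT-TI (0.75, adjusted p = 0.0277, edgeR) and MT-TT (0.95, adjusted p = 0.000374, edgeR) were added although the numbers were not taken to pair these libraries, and for GDF11 in senescent MSCs the block changed no call. With this block and without MmC-/GDF11+ replicate 2, 21 genes were higher without GDF11, and the median over the mRNAs for GDF11 in young MSCs was -0.06. Both values depend on omitting a library that was chosen for its low mitochondrial counts.

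Reversals were limited to genes that did not pass in the main analysis. For MmC without GDF11, MT-CO2 turned to 0.00889 with RLE scaling, 0.0198 with upper-quartile scaling, 0.00313 with nuclear-gene scaling, 0.0313 with a minimum of 10 counts, 0.00889 with DESeq2, 0.0127 without replicate 1 of every group and 0.00928 with only the libraries compared. MT-TA turned to 6.73e-05, 0.0097, 0.0232, 0.00573, 0.112 and 0.000513 with RLE scaling, upper-quartile scaling, the count minimum, DESeq2, replicate 1 left out and only the libraries compared. For MmC with GDF11, MT-TQ and MT-TC turned to 0.0437 and 0.0621 without replicate 1 of every group, and MT-TP to -0.038 with the block and without MmC-/GDF11+ replicate 2. Leaving out single libraries moved MT-CO2 between -0.064 and 0.062, MT-TA between -0.11 and 0.079, MT-TH between -0.0030 and 0.40, MT-ND6 between -0.017 and 0.16 and MT-TP between -0.042 and 0.37 without GDF11, and MT-TQ between -0.19 and 0.10, MT-TC between -0.30 and 0.010 and MT-TP between -0.037 and 0.18 with GDF11. The causes were not tested. Depth limits the tRNAs, of which 5 could not be tested.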
